A study of Mus musculus with 8 samples.

Results

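The mitochondrial ribosome genes are the 76 genes of the array, of 18193 genes named in all, whose symbol begins with Mrpl or Mrps and a number. Of these, 47 carry the large-subunit prefix Mrpl and 29 the small-subunit prefix Mrps, and each gene was read from the probeset, a set of short probes for a transcript, with the highest mean signal over the 8 arrays. RNA from whole hearts of unstressed male mice was measured on Affymetrix mouse expression arrays, with 4 WT and 4 SRC-2 KO hearts and a separate mouse on each array. All mice had the strain background C57B/6Jx129Sv, were fed ad lib and were labelled as 10 to 12 weeks old, and the methods give a wider age range. The KO mice carry a germline knockout of SRC-2, the nuclear receptor coactivator encoded by Ncoa2, so the loss is not limited to cardiomyocytes or to the heart. The comparison asks how expression of these genes differs between hearts with and without the coactivator.

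Mitochondria carry their own ribosomes, which translate only the few proteins encoded by mitochondrial DNA. Those proteins are core parts of the respiratory chain and of the ATP synthase, so a heart, which depends on oxidative metabolism, needs mitochondrial ribosomes to renew its respiratory complexes. All protein subunits of the mitochondrial ribosome are encoded in the nucleus, made by cytosolic ribosomes and imported, whereas its ribosomal RNAs come from mitochondrial DNA. The small subunit binds the mRNA and the large subunit joins the amino acids and passes the new chain into the inner membrane.

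The signal of Ncoa2 checked the labels and was 1660.3, 2115, 1827 and 2134 in the WT hearts and 237, 259.6, 267 and 235 in the KO hearts, with means of 1934 ± 230.5 and 249.8 ± 16.2 (SD, n = 4 each). Ncoa2 fell by 2.95 on the log2 scale (SE 0.12, adjusted p = 5.9e-04, limma with Benjamini-Hochberg adjustment over all genes). The 10 cardiomyocyte markers chosen for the tissue were all detected in every heart, and every member of the mitochondrial ribosome had a mean signal at or above the median of all genes. Their signals ran from 584 to 34216 on the linear scale of the arrays, against a level of 50 below which values are near background. The number of arrays, 4 per genotype, limits the precision of every value.

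A pair of hearts stood apart from the others of their genotype in these genes. WT replicate 1 had the highest of the 4 WT values in 61 of the 76 genes and the highest of all 8 values in 20. It lay above the mean of the KO hearts in 45 genes, against 7, 7 and 8 genes for WT replicates 2, 3 and 4. KO replicate 4 had the lowest KO value in 44 genes. The subunit medians and the counts of genes without overlap are therefore also given without each of these hearts. Most values of single genes and of related lists are given with all 8 hearts only.

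Most mitochondrial ribosome genes had a slightly higher mean signal in the KO hearts, and no single gene passed the test. The mean log2 signal was higher in KO for 42 of 47 large-subunit genes, with a median difference of 0.16, and for 26 of 29 small-subunit genes, with a median of 0.19. Over all genes of the array the mean was higher in KO for 47.0%, with a median difference of -0.03. In whole-heart RNA, fewer cells of a type and less RNA per cell cannot be told apart. With a common prior variance, 1 gene of the array was called higher (0.00550%) and 3 lower (0.0165%) at an adjusted p under 0.05, and no mitochondrial ribosome gene was among them. With a prior variance that follows the signal, 22 genes were called higher (0.121%) and 47 lower (0.258%), again with none of the 76. The smallest adjusted p was 0.483 among large-subunit genes and 0.388 among small-subunit genes, or 0.197 and 0.0855 with the trended variance (limma).

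At an unadjusted p under 0.05, 5 of the 76 genes were higher in KO, against 3.95% of all genes, and 1 was lower, against 6.12%. With the trended variance, 24 of the 76 were higher, against 5.36%, and 1 was lower, against 7.28%. In 7 genes all 4 KO hearts lay above all 4 WT hearts, a pattern seen in 3.10% of all genes, and in 1 gene they lay below, against 3.72%. All 76 lie among the 9097 genes at or above the median signal. Of those 9097 genes, 762 were higher and 919 lower at an unadjusted p under 0.05 with the trended variance. All KO hearts lay above all WT hearts in 426 of them and below in 447. After quantile normalization, which gives every array the same distribution of values, 61 of the 76 genes were higher in KO, against 51.1% of all genes. The median difference was then 0.13 for the large subunit, where 40 of 47 genes were higher, and 0.17 for the small subunit, where 21 of 29 were. The counts without overlap were then 5 above WT, against 3.29% of all genes, and 1 below, against 3.16%. At an unadjusted p under 0.05, 4 of the 76 were then higher, against 4.62%, and 1 was lower, against 4.89%. With quantile normalization and the trended variance these counts were 18, against 5.77%, and 1, against 6.07%. Among the 9097 brighter genes they were 773 and 793, and after quantile normalization KO hearts lay all above in 437 and all below in 390. No mitochondrial ribosome gene was called after quantile normalization with either variance, where the trended one called 0.0934% of all genes higher and 0.165% lower.

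**Figure D1:**
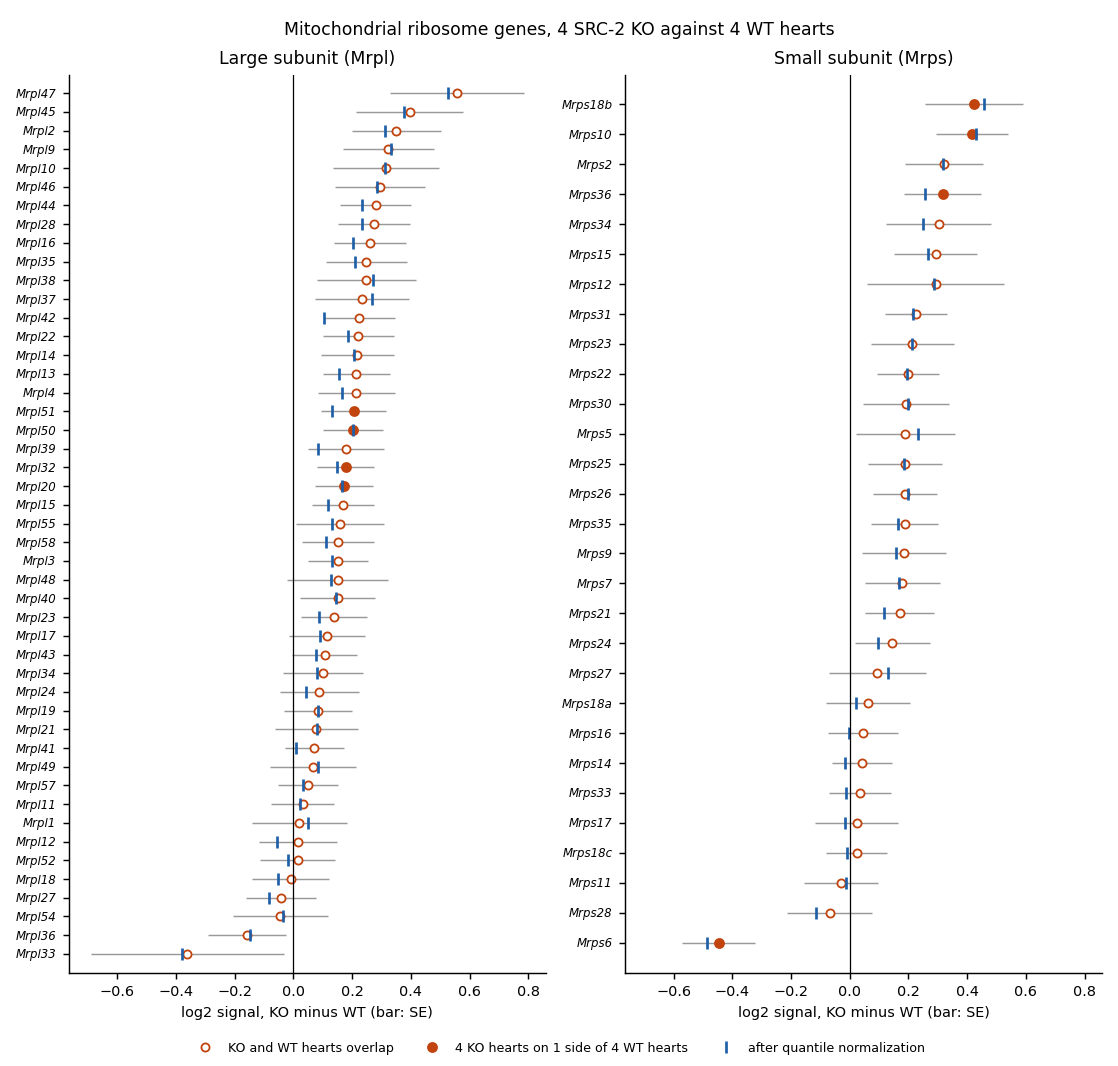
Differences between KO and WT in mean log2 signal for the 47 large-subunit genes (left) and the 29 small-subunit genes (right), with bars of 1 SE from the fit and 4 hearts per genotype. Filled points are genes in which the 4 KO hearts lay on 1 side of the 4 WT hearts, blue ticks are the differences after quantile normalization, and most points lie above 0 by less than 0.4.

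Averaged over the genes of a subunit, the hearts of both genotypes overlapped. For the large subunit, the mean log2 signal relative to the mean of the WT hearts was 0.20, -0.08, -0.06 and -0.05 in the WT hearts and 0.17, 0.17, 0.20 and 0.07 in the KO hearts. For the small subunit the corresponding values were 0.18, -0.15, -0.01 and -0.03 in WT and 0.18, 0.15, 0.20 and 0.07 in KO. WT replicate 1 thus lay among the KO hearts in both subunits, and every KO heart lay above the other WT hearts. After quantile normalization WT replicate 1 stood at 0.18 for the large subunit, above the KO values of 0.14, 0.14, 0.16 and 0.06.

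Over all 76 genes the mean of the KO hearts was 0.15 above WT, with an SD of 0.06 among KO hearts. The WT values were 0.19, -0.11, -0.04 and -0.04, so WT replicate 1 set most of their SD of 0.13. Within single hearts, 73 of the 76 genes lay above the WT mean in WT replicate 1, against 19, 20 and 24 in the other WT hearts. In the KO hearts these counts were 65, 62, 65 and 53. Without WT replicate 1, 45 of 47 large-subunit genes were higher with a median of 0.20, and 28 of 29 small-subunit genes were higher with a median of 0.23, beside 46.6% of all genes. Because these hearts were singled out on the same 76 genes, as the highest WT and the lowest KO heart, leaving them out raises the medians and counts of these genes by construction, and the shares of all genes are no yardstick for them. Without WT replicate 1, all KO hearts lay above all WT hearts in 32 of the 76 genes, beside 5.89% of all genes, and below them in 1, beside 6.74%. Without KO replicate 4 these counts were 20, beside 6.32%, and 1, beside 8.28%, with medians of 0.20 for each subunit and 46.8% of all genes higher. No mitochondrial ribosome gene was called without either heart.

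**Figure D2:**
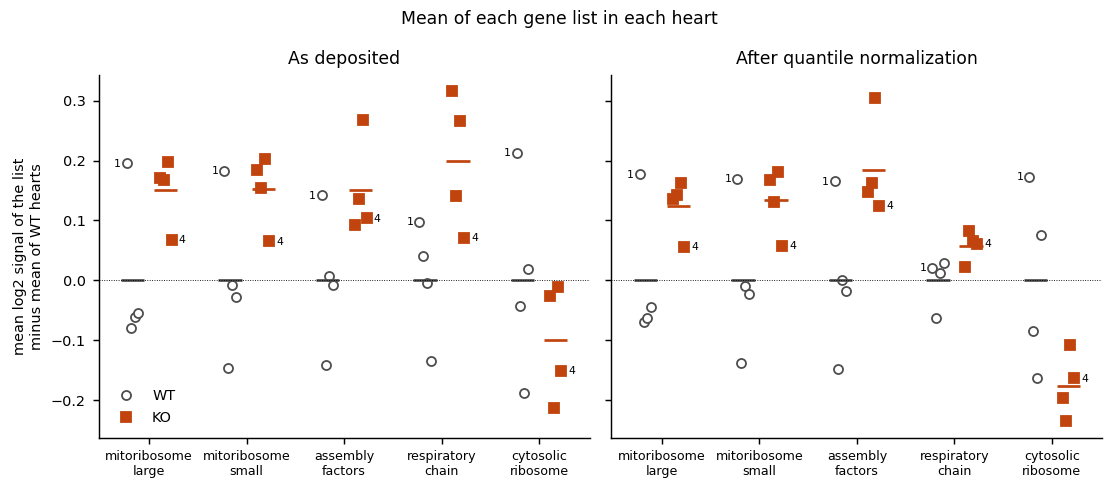
Mean log2 signal of each gene list in each heart, relative to the mean of the WT hearts, as deposited (left) and after quantile normalization (right). Circles are WT hearts, squares are KO hearts, short lines are group means, and WT replicate 1 and KO replicate 4 are numbered. As deposited, WT replicate 1 lies among the KO hearts for both subunits of the mitochondrial ribosome, and after quantile normalization it lies above every KO heart for the large subunit.

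In the large subunit, the biggest difference was that of Mrpl47, the counterpart of bacterial L29 near the exit of the peptide tunnel. Its signal was 3984, 2952, 3070.4 and 2993 in the WT hearts and 6141, 5139.6, 5163 and 3117 in the KO hearts. In 3 KO hearts it was above every WT heart, whereas KO replicate 4 lay within the WT range. The difference was 0.56 log2 (SE 0.23, adjusted p = 0.483, limma). The value rests on a single probeset. A dimmer one read 146, 259, 283 and 204 in the WT hearts and 10.7, 309, 205 and 219 in the KO hearts, with KO replicate 1 far below the rest, and another had means under 50 in both genotypes. Mrpl45, which docks the ribosome to the inner membrane at the tunnel exit, measured 2738, 1762, 2751 and 2454 in the WT hearts and 3115, 3407, 3496 and 2632 in the KO hearts. Its difference was 0.40 (SE 0.18, adjusted p = 0.52, limma), and KO replicate 4 again lay within the WT values. Mrpl2, a protein of the core that surrounds the peptidyl transferase center, measured 4824, 3559, 3828 and 3644 in the WT hearts and 4737, 6013, 5006 and 4447 in the KO hearts, a difference of 0.35 (SE 0.15).

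Mrpl44, a subunit with a ribonuclease III fold in which human mutations cause cardiomyopathy, measured 5957, 4404, 4878 and 5119.9 in the WT hearts and 5995, 6316, 6413 and 5872 in the KO hearts. Every WT heart except replicate 1 lay below every KO heart, and the difference was 0.28 (SE 0.12, adjusted p = 0.499, limma). Its other 3 probesets had differences of 0.18, 0.30 and 0.14, all in the same direction. The counterparts of bacterial proteins Mrpl28, Mrpl16, Mrpl9 and Mrpl13 had differences of 0.27, 0.26, 0.32 and 0.21, each with overlapping hearts. Mrpl46, which has no bacterial counterpart, had a difference of 0.30 (SE 0.15). Mrpl12, the stalk protein that recruits translation factors, had means of 11058 ± 1136 in WT and 11204 ± 1379 in KO (SD, n = 4 each), a difference of 0.02 that was -0.05 after quantile normalization.

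In 4 large-subunit genes, all KO hearts lay above all WT hearts as deposited, although each difference was about 0.2 log2 or less. Mrpl51, a subunit with no bacterial counterpart, measured 14882, 14516, 12843 and 15138 in the WT hearts and 17265, 15657, 17953 and 15284 in the KO hearts. Mrpl50, likewise particular to mitochondria, measured 1573, 1666, 1637 and 1646 in the WT hearts and 1814, 1894, 2099.9 and 1723 in the KO hearts, a difference of 0.20 (SE 0.10, adjusted p = 0.545, limma), and its second probeset had a difference of 0.12. The WT hearts were closely grouped for this gene, with an SD of 40.4 around 1630.3. Mrpl32, the counterpart of bacterial L32, whose maturation by the m-AAA protease precedes assembly of the ribosome, measured 3741, 3827, 3474 and 3543 in the WT hearts and 4175, 4092, 4399.8 and 3846 in the KO hearts. Mrpl20, an early-binding protein in bacterial assembly, measured 2482, 2239, 2564 and 2179 in the WT hearts and 2596, 2654, 2683 and 2704 in the KO hearts. For Mrpl20 the gap between WT replicate 3 and KO replicate 1 was smaller than the SD of the WT hearts, 186. Gaps were also narrow for Mrpl32, at 3827 in WT replicate 2 and 3846 in KO replicate 4, and for Mrpl51, at 15138 and 15284. After quantile normalization the hearts overlapped for Mrpl32 and Mrpl51 and stayed apart for Mrpl20 and Mrpl50.

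Only 5 large-subunit genes had a lower mean in KO, and none of them stood out from the spread between hearts. Mrpl33, a small protein of the bacterial L33 family, measured 4157, 4258, 2274 and 4644 in the WT hearts and 2716, 2717, 1975 and 4709 in the KO hearts, and WT replicate 3 and KO replicate 4 each lay far from the other hearts of their genotype. Its difference was -0.36 with an SE of 0.33. Mrpl36, the counterpart of the zinc-binding bacterial L36, had a difference of -0.16 (SE 0.13). Mrpl27, whose bacterial counterpart reaches into the peptidyl transferase center, differed by -0.04, Mrpl54 by -0.04 and Mrpl18 by -0.01.

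In the small subunit, Mrps10, the counterpart of bacterial S10 in the head of the subunit, was higher in every KO heart. Its signal was 1388, 1164, 1215 and 1188 in the WT hearts and 1727, 1468, 1888 and 1544 in the KO hearts. The means were 1239 ± 101 and 1657 ± 189 (SD, n = 4 each), so KO was higher by 0.42 log2 (SE 0.12, 95% interval 0.13 to 0.71), or 33.4%. The adjusted p was 0.402, or 0.122 with the trended variance (limma). Mrps18b belongs to the S18 family, which has several paralogs in mammalian mitochondria, and measured 1024, 781, 968 and 804 in the WT hearts and 1055, 1099.9, 1538 and 1126 in the KO hearts. The gap between the groups was narrow, with KO replicate 1 close above WT replicate 1, and the difference was 0.42 (SE 0.17, adjusted p = 0.474, limma). Its paralogs Mrps18a and Mrps18c had differences of 0.06 and 0.02.

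Mrps36 had the remaining case of KO hearts all above WT hearts, at 9851, 9526, 7253 and 8886 in the WT hearts and 11793, 10789, 11411 and 10001 in the KO hearts. Its difference was 0.32 (SE 0.13). Despite its symbol, its product is now known as a component of the oxoglutarate dehydrogenase complex of the Krebs cycle and not of the ribosome. Mrps2, the counterpart of bacterial S2, measured 2123, 1561, 1625 and 1869 in the WT hearts and 2283, 2313, 2317 and 2003 in the KO hearts, and only KO replicate 4 lay inside the WT range. The difference was 0.32 (SE 0.13, adjusted p = 0.487, limma), and that of its dimmer second probeset was 0.26. Mrps15, Mrps31 and Mrps22 had differences of 0.29, 0.22 and 0.20, and human mutations of the last, a subunit with no bacterial counterpart, cause cardiomyopathy. Mrps30 and Mrps18a, which lie in the large subunit in structures of the mammalian ribosome in spite of their prefix, had differences of 0.19 and 0.06. Mrps28 and Mrps11 had differences of -0.07 and -0.03, both within 1 SE of 0.

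**Figure D3:**
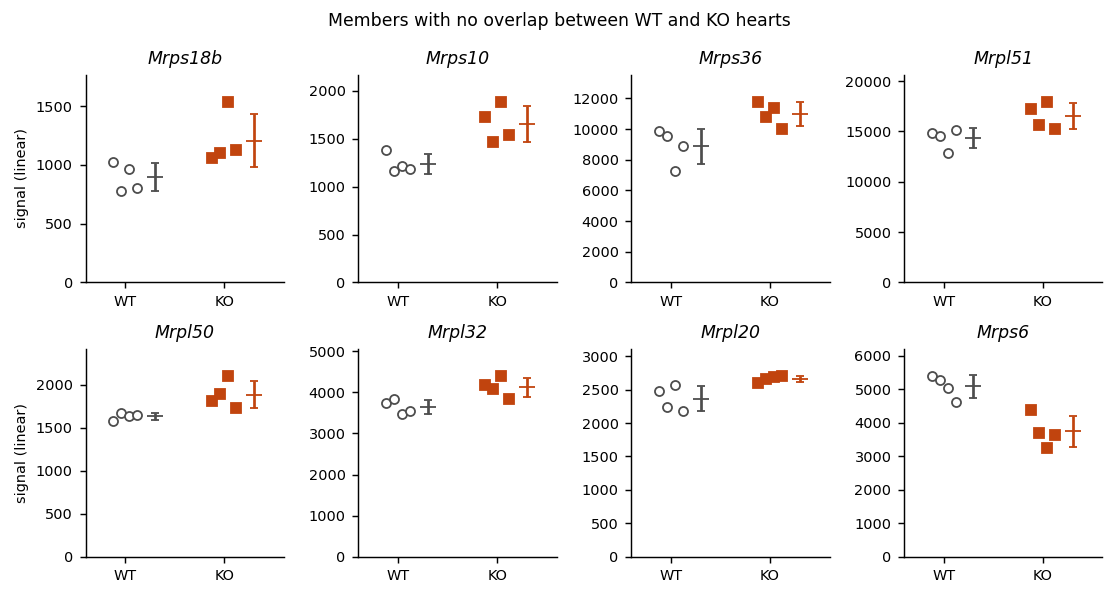
Signal on the linear array scale of the 8 genes in which KO and WT hearts did not overlap as deposited, with each heart as a point and the mean ± SD (n = 4) beside it. Mrpl32 and Mrpl51 overlapped after quantile normalization. In 7 genes the KO hearts lie above the WT hearts, and in Mrps6 they lie below.

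Mrps6, the counterpart of bacterial S6, was the exception to the direction of the small subunit. Its signal was 5399, 5279, 5027 and 4635 in the WT hearts and 4383, 3703, 3254 and 3641 in the KO hearts, so every KO heart lay below every WT heart. The means were 5085 ± 338 and 3745 ± 469 (SD, n = 4 each), which put KO lower by 26.6%. The log2 difference was -0.45 (SE 0.12, 95% interval -0.74 to -0.16), the smallest p of the 76 genes. The adjusted p was 0.388 with the common variance and 0.0855 with the trended one (limma). After quantile normalization the difference was -0.49, with an adjusted p of 0.381, or 0.0549 with the trended variance (limma), so it passed in no fit. The suffix of the probeset marks probes that can read several transcripts. A second probeset of Mrps6 without that suffix read 3382, 3561, 2655 and 2741 in the WT hearts and 3383, 2083, 1865 and 2147 in the KO hearts. That difference was -0.41, and KO replicate 1 lay inside the WT range (two-sided exact permutation p = 0.114, adjusted p = 0.629 over 22 probesets).

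The start of Mrps6 is shared with another gene, Slc5a3, which encodes the sodium-dependent transporter of the osmolyte myo-inositol. Both lie on the same strand of chromosome 16, their annotated start sites are 14 bases apart, and Slc5a3 lies inside Mrps6 apart from those bases. The promoter windows of both genes, from 250 bases before to 50 after the start site, share 286 of their 300 bases (RefSeq, GRCm38.p6). The last 80 bases before the start site of Mrps6, at chr16:92058256-92058335 on the plus strand, are printed here because they hold the start site of Slc5a3, marked by the capital.
Mrps6: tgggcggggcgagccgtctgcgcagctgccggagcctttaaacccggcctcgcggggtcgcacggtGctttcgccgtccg

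Slc5a3 was looked up after the values of Mrps6 were seen and is no ribosome gene. Its signal was 674, 1096, 850.4 and 703 in the WT hearts and 271, 425, 314 and 529 in the KO hearts, with no overlap between genotypes. The difference was -1.13 log2 (SE 0.26), with an adjusted p of 0.335 for the common variance and 0.0481 for the trended one (limma). After quantile normalization it was -1.07, with an adjusted p of 0.364, or 0.0654 with the trended variance (limma). Whether Slc5a3 passed thus depended on the variance and the scaling. Its other probesets had KO means under 50 and overlapping hearts, so no difference is given for them. Since the genes overlap on one strand, which transcript each probeset reads was not checked here, and the Mrps6 value is uncertain to that extent.

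**Figure D4:**
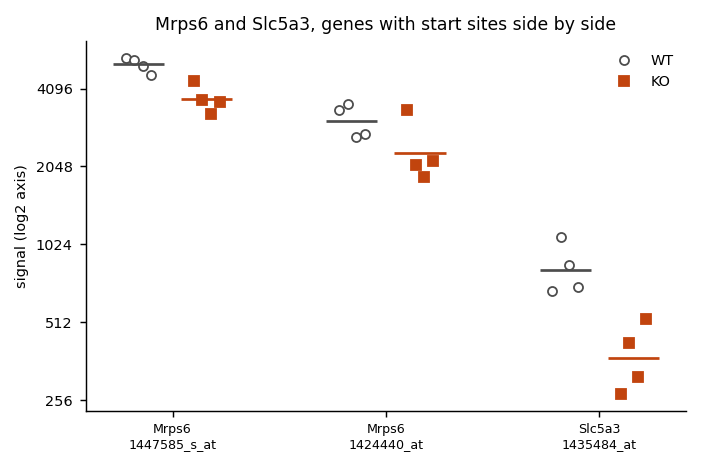
Signal of both Mrps6 probesets and of the brightest Slc5a3 probeset in each heart, on a log2 axis, with lines at the group means of log2 signal. KO hearts lie below WT hearts for the brightest probeset of each gene, whereas for the second Mrps6 probeset KO replicate 1 lies among the WT hearts. Heights are not comparable between probesets.

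More than 1 probeset was present for 42 of the 76 genes, which gave 80 further probesets. Of these, 59 had a mean of at least 50 in both genotypes. Among the 59, 41 were higher in KO, 39 had the same sign as the brightest probeset of their gene, and the median difference was 0.14. For the 26 members named by rule, 22 further probesets were tested with an exact permutation test over hearts, for which the smallest possible two-sided p is 0.0286. None reached it, and the smallest adjusted p was 0.419.

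Most genes were higher in KO both among proteins inherited from the bacterial ribosome and among those particular to mitochondria. Genes were assigned to these classes after their values were known, so the counts are a description, and differences between classes were not tested. In the large subunit, 25 of 29 genes with a bacterial counterpart were higher in KO, with a median of 0.16, and 17 of 18 genes without one, with a median of 0.17. Among genes with the small-subunit prefix the counts were 15 of 18, with a median of 0.16, and 10 of 10, with a median of 0.19. After quantile normalization the latter counts were 11 of 18, with a median of 0.11, and 9 of 10, with a median of 0.20. Classes follow the prefix, so Mrps18a is among the 18 and Mrps30 among the 10, although both lie in the large subunit. Subunits that the prefix does not capture had the same direction, with 4 of 4 measured genes higher and a median of 0.30. They include Dap3, the GTP-binding protein of the small subunit, with a difference of 0.31 (SE 0.14), and Gadd45gip1, a large-subunit protein, with 0.43 (SE 0.18).

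Lists of genes that act with the mitochondrial ribosome held no called gene with the common or the trended variance, as deposited or after quantile normalization. Assembly factors were higher in KO in 22 of 25 measured genes with a median of 0.15, and genes of mitochondrial DNA transcription and RNA processing in 22 of 28 with a median of 0.18. Translation factors were higher in 10 of 14 with a median of 0.17, and mitochondrial aminoacyl-tRNA synthetases, which charge the tRNAs, in 13 of 18 with a median of 0.13. Import and membrane insertion genes were higher in 18 of 18 with a median of 0.18. Gfm1, the elongation factor that moves the ribosome along the mRNA, measured 5174, 4129, 4338 and 4232 in the WT hearts and 5942, 5467, 5609 and 5940.0 in the KO hearts, and every KO heart lay above every WT heart. Its difference was 0.37 (SE 0.11, adjusted p = 0.402, limma). Hsd17b10, a subunit of mitochondrial RNase P, differed by 0.40 (SE 0.12) and also did not overlap. Ears2, the mitochondrial glutamyl-tRNA synthetase, and Nsun4, which acts in ribosome assembly, differed by 0.47 and 0.24 without overlap, and the assembly factor Rcc1l by 0.49 with overlap. Mterf2, of the mitochondrial transcription factor family, differed by 0.39, Tomm40, the import channel of the outer membrane, by 0.44, and the import chaperone Hspa9 by 0.28. In the opposite direction, Lars2, the mitochondrial leucyl-tRNA synthetase, measured 2212, 2382, 2212 and 2412 in the WT hearts and 1734, 1428, 714 and 1347 in the KO hearts, a difference of -0.89 (SE 0.27, adjusted p = 0.402, limma). The dim Guf1, an elongation factor, differed by -0.77 (SE 0.30). Among transcriptional regulators of mitochondrial genes, 9 of 14 were higher with a median of 0.10, and the nuclear receptor Esrra had a difference of 0.24. Ppara, a nuclear receptor that drives fatty acid oxidation, had a difference of 0.62 (SE 0.16, adjusted p = 0.352, limma). That value comes from the brightest of 3 probesets, and the others are not given here. By quantitative PCR, the paper reports lower Ppara mRNA in KO hearts, the opposite direction, and no change in Esrra. The cause of this discrepancy was not tested.

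Compared with these lists, nuclear-encoded respiratory chain subunits and cytosolic ribosomal proteins depended more on the scaling. As deposited, 30 of 31 respiratory chain genes were higher in KO with a median of 0.20. After quantile normalization 22 of 31 were, and the median was 0.04. By quantitative PCR, the paper reports the opposite direction in KO hearts, with lower mRNA of several oxidative phosphorylation and Krebs cycle genes. The cause of this discrepancy was not tested. Ndufa12 and Ndufa8, subunits of complex I, differed by 0.70 and 0.37 as deposited and by 0.53 and 0.26 after quantile normalization. For cytosolic ribosomal proteins, the median was 0.04 as deposited, with 13 of 19 genes higher, and -0.08 after quantile normalization, with 1 of 19 higher. Rps6 differed by -0.37 (SE 0.32) and Rps16, whose signal lay near background in every heart, by -2.06 (SE 1.14). On these scales the medians of the mitochondrial ribosome were 0.16 and 0.13 for the large subunit and 0.19 and 0.17 for the small subunit. The median of the respiratory chain kept its sign as well. Of the 29 small-subunit genes, 5 changed sign, with 26 higher in KO as deposited and 21 after quantile normalization. Differences between these lists were not tested.

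**Figure D5:**
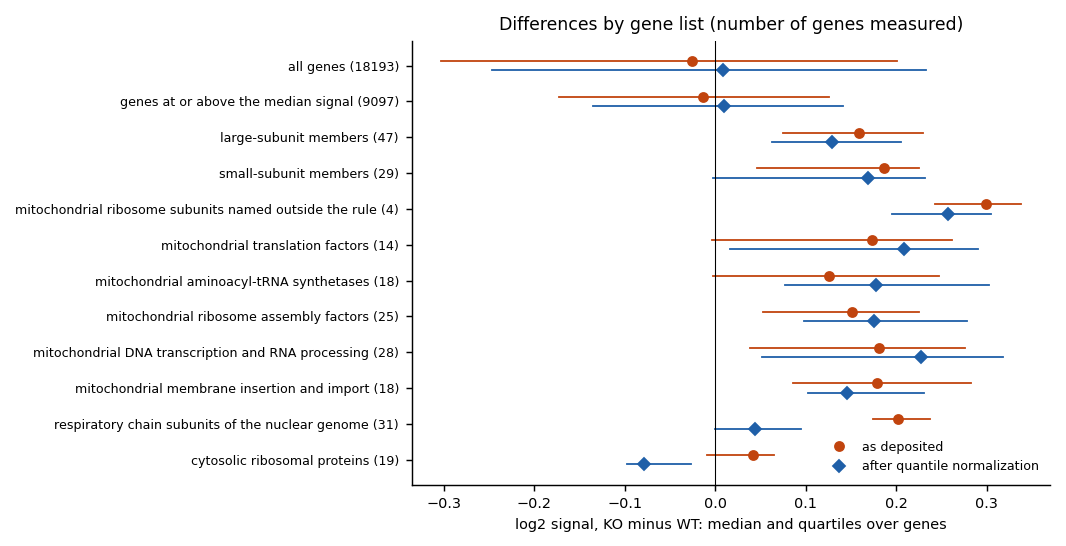
Median and quartiles over genes of the difference in log2 signal between KO and WT hearts, for all genes, for both subunits and for related lists, with the number of genes measured in parentheses. Circles are values as deposited and diamonds are values after quantile normalization, which lowered the median of respiratory chain genes from 0.20 to 0.04.

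Markers of several cell types differed between the same hearts, and their part in the result was not tested. All 10 cardiomyocyte markers had higher means in KO, with a median difference of 0.19 and a summed signal that ran from 507384 to 677242 in WT hearts and from 605908 to 776342 in KO hearts, but the median was 0.00 after quantile normalization. None of 10 fibroblast markers was higher, with a median of -0.63, and their summed signal ran from 91846 to 150184 in WT hearts and from 61936 to 95439 in KO hearts. None of 8 macrophage markers was higher, with a median of -0.37. Their sums of 15101 to 18869.6 in KO hearts lay below those of 19680.0 to 25264 in WT hearts. None of 10 endothelial markers was higher, with a median of -0.23, and WT sums of 16081 to 19937 overlapped KO sums of 13137 to 17845. Smooth muscle markers were higher in 1 of 7, with a median of -0.33, although their KO sums of 59154 to 80103 were mostly above WT sums of 54090.3 to 59543.

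Atrial markers were higher in 1 of 8 genes with a median of -1.64, and their sums ran from 159237 to 276311 in WT and from 35143 to 210396 in KO. Of 6 adipocyte markers 4 were measured and all were higher, with WT sums of 450.1 to 845 and KO sums of 476 to 1675. Of 5 red blood cell markers 3 were measured and all were higher, with WT sums of 740.4 to 1584 and KO sums of 1129.5 to 4650.3. By heart, the fibroblast mean relative to WT was -0.23, 0.50, -0.18 and -0.09 in WT and -0.82, -0.62, -0.87 and -0.12 in KO. For cardiomyocyte markers these values were 0.06, 0.14, 0.03 and -0.23 in WT and 0.34, 0.10, 0.27 and 0.01 in KO. For macrophage markers they were 0.04, 0.19, -0.14 and -0.10 in WT and -0.47, -0.46, -0.21 and -0.24 in KO. Smooth muscle markers gave -0.35, 0.15, -0.01 and 0.20 in WT and -0.84, -0.02, -0.82 and 0.53 in KO. Whether marker values by heart go with those of the mitochondrial ribosome was not tested. The signal of 3′ over 5′ control probes, a sign of RNA integrity, was -0.05 log2 in WT and -0.10 in KO for Gapdh and 1.34 and 1.43 for actin.

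Promoter sequence was described for the 67 members with a window in the RefSeq promoter table used here, which runs from 250 bases before to 50 bases after the start site (GRCm38.p6). Exact letters of sites known for regulators of mitochondrial genes were searched on both strands. The GABPA site CCGGAAG occurred in 25 of the 67 genes, or 37.3%, against 15.0% of all array genes with a window. The YY1 site AAGATGGC occurred in 12, or 17.9%, against 4.07%. The core of the NRF1 site, GCGCATGC, occurred in 8, or 11.9%, against 4.68%, and the longer site GCGCATGCGC, which contains it, in 3, or 4.48%, against 1.75%. The site of estrogen-related receptors, CAAGGTCA, occurred in 2, or 2.99%, against 1.585%, and these were Mrps21 and Mrps15. Over all 32851 windows, each of 300 bases, the shares were 8.86%, 2.75%, 2.71%, 0.971% and 1.56% in the same order. The median GC content was 58.7% in member windows and 52.7% in all windows, and its part in these shares was not tested.

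Of the 7 genes with KO hearts all above WT hearts as deposited, 4 (Mrpl20, Mrpl50, Mrps10 and Mrps36) had none of the letters searched in their window. Segments of the promoters of the other 3 are shown, with the letters in capitals. That of Mrpl32, at chr13:14613048-14613137 on the minus strand, holds the longer NRF1 site and 2 more core sites. That of Mrpl51, at chr6:125192090-125192139 on the plus strand, holds the GABPA site. That of Mrps18b, at chr17:35916631-35916680 on the minus strand, holds the NRF1 core read from the opposite strand. Outside the segments shown, the window of Mrps18b also holds another NRF1 core and a GABPA site, and that of Mrpl32 a YY1 site.
Mrpl32: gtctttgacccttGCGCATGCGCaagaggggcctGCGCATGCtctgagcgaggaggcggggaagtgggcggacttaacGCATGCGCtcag
Mrpl51: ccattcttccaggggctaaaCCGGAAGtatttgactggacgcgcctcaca
Mrps18b: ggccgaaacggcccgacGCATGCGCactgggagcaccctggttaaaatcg
A match describes letters only. Genes with and without a match occurred among those with higher and lower values, since Mrpl33, lower in KO, has both the NRF1 core and the GABPA site in its window.

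Start sites of other genes lay close by on the opposite strand for many members. Such a site lay within 1000 bases for 26 of the 67 genes, or 38.8%, against 20.2% of array genes with a window. Mrpl46 and Mrps11 form such a pair with start sites 42 bases apart, and their differences were 0.30 and -0.03. Mrpl47 lies 308 bases from Ndufb5, a subunit of respiratory complex I, whose difference was 0.13 beside 0.56 for Mrpl47. Mrpl51 and Ncapd2, 614 bases apart, had closer values of 0.21 and 0.22. Other pairs lay far apart, such as Mrps18b and Ppp1r10 at 0.42 and -1.41, and Mrpl21 and Ighmbp2 at 0.08 and -1.57. Whether paired genes go together was not tested.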

How the data were processed

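RNA of 4 WT and 4 SRC-2 KO mouse hearts was measured on Affymetrix mouse expression arrays, and genotypes were taken from the labels. Expression Console (Affymetrix), Partek and RMA are named in the notes of the submitters on processing. The deposited values are intensities on a linear scale, not log2 values, with each array scaled by the authors to a mean of 500 after trimming 2% at each end and with unequal distributions, so they are not RMA values. Array medians ran from 75.6 to 87.3, and 36.9% to 40.7% of values lay under 50. The design had allowed for RMA values. Here the intensities were turned to log2 as deposited, without rescaling and without a floor.

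Of 45101 probesets, 64 are controls, 34945 had 1 gene symbol, 932 had several, and 9211 were outside the annotation table and stayed unnamed here. The brightest probeset per gene, as in the study's methods, gave 18193 genes. KO was compared with WT with limma 3.58.1 (R 4.3.3) with a common prior variance, and p-values were adjusted by Benjamini-Hochberg over all genes at 0.05. Alternatives were a trended variance, a random variance model, quantile normalization, median centring, other probeset rules, a floor of 50, brighter genes only, a replicate block and leaving out each heart. On simulated data with 18193 genes, the fit called 52 of 100 genes changed by 2 log2 units and 24 of 100 changed by 1, and 23 of the 44 among the latter with a signal above the median (36 of 44 with the trended variance). It also called 5 unchanged genes, or 3 with the trended variance. Changes as small as those of the mitochondrial ribosome genes were not simulated, so these counts do not tell how often such changes would be called. The simulated errors were independent between genes, without a shift shared by the genes of a heart. The scatter of the variances between genes was a fixed setting, not estimated from these data. The counts are therefore no measure of power in the real arrays. Genes named are, per subunit, those with the smallest p (10 large and 8 small), the 3 with the smallest p of the opposite sign, those with a role or place their name does not give, and 2 genes per related list. Other genes, such as those without overlap, were named after their values were seen. Members and lists were chosen with earlier results of these data known. Promoter sequences are RefSeq, GRCm38.p6.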

Additional observations from a re-analysis of the deposited data

Results flagged for a closer look

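Of 56 sets of 4 values screened for a heart far from the others of its genotype, 4 stood out, where chance gives about 1 in 20. The measure is the gap to the nearest heart as a share of the group's range, compared with Dixon's critical value. WT replicate 1 was high for the mean of the large-subunit genes, at 0.911, and for Mrpl47, at 0.869. WT replicate 3 was low for Mrpl33, at 0.845. KO replicate 4 was low for Mrps2, at 0.898. The cause was not tested.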

How the results depend on the processing

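In none of the 10 alternatives, nor without any single heart, was a mitochondrial ribosome gene called, and both subunit medians stayed above 0, at 0.13 to 0.22 for the large and 0.17 to 0.25 for the small subunit, or 0.14 to 0.20 and 0.13 to 0.23 with a heart left out. Over all genes, where 1 was called higher and 3 lower, the trended variance called 22 and 47, quantile normalization 0 higher (841 at an unadjusted p under 0.05), quantile normalization with the trended variance 17 and 30, and the mean of all probesets 0 and 1. Genes at or above the median signal gave 4 and 18, a floor of 50 with the trended variance gave 0 higher, and leaving out a heart gave 0 to 1 higher and 1 to 5 lower. Members higher at an unadjusted p under 0.05, 5 in the report, numbered 24 with the trended variance, 9 with the random variance model, 18 with quantile normalization and trended variance, 1 with the mean of probesets, 2 without probesets whose suffix (x, s or a) marks several transcripts, 13 among brighter genes, 21 with the floor and the trended variance together and 1 to 15 without a heart. Without suffixed probesets 0 were lower, and 17 of 20 small-subunit genes then measured were higher. Members with KO hearts all above, 7 in the report, numbered 3 after median centring, 4 without suffixed probesets and 7 to 32 without a heart. The shares of all genes were 5.36% beside the 24, 5.77% beside the 18, 3.10% beside the 7 and 5.89% beside the 32, which left out WT replicate 1. For the other settings named here no share of all genes is given, so those counts cannot be set against a background. The 1 gene with KO hearts all below was 0 with the mean of probesets and 0 without suffixed probesets. Ncoa2 was -1.30 (adjusted p = 0.478, limma) as the mean of its probesets.

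Replicate numbers did not pair the hearts, since the deviations of same-numbered hearts correlated at 0.07, -0.08, -0.03 and 0.12. With the replicate number as a block, 0 genes were called higher and 0 lower, 3 members were higher at an unadjusted p under 0.05, and the adjusted p of Ncoa2 was 0.258 (limma) at -2.95.

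Of 26 named members, 20 kept their sign throughout. Mrpl12 was -0.054 in both fits after quantile normalization, Mrpl27 0.019 after median centring and 0.095 as the mean of probesets, Mrps11 0.032 and 0.33 in the same settings, and Mrpl47 -0.15 as the mean of probesets. Leaving out a heart moved Mrpl27 between -0.091 and 0.044, Mrps28 between -0.14 and 0.025, Mrps11 between -0.088 and 0.045, Mrpl12 between -0.063 and 0.074 and Mrps18a between -0.019 and 0.16. The cause was not tested. Every member had a signal above 50 in every heart.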
